A study of Abies pinsapo with 12 samples.

Results

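In August needles of Spanish fir (Abies pinsapo), 129 of 329801 assembled transcripts set trees of thinned, unshaded stands apart from both other treatments. Of these, 50 stood higher and 79 stood lower in thinned trees. Members were selected on the measured August values. A transcript was taken where it reached 10 scaled TPM or more in at least 2 of the 6 August libraries and both thinning values lay at least 1.5 times above, or at least 1.5 times below, all 4 values of control and shaded trees. The August means of control and shaded trees had to lie within 1.5-fold of each other, and the mean over all 12 libraries under 1000. Transcripts whose August and May values did not overlap were left out. Scaled TPM is a length-corrected share of the library, multiplied by 1 factor per library. Since the August values chose the members, their August values are given as a description, without a test. The May values did not set the contrast, and they carry the tests.

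By design, light is what thinned, unshaded trees have more of than both other treatments. Conifer needles that develop or stay in full sun are known to differ from shade needles in thickness, pigment balance and photoprotection, and plants sense canopy shade through phytochromes and cryptochromes, photoreceptors that set the activity of light-regulated genes. Strong light also brings heat and drying, so a sunlit needle in a dry summer meets several stresses together. The identifiers come from an assembly without gene names, so no transcript below has a known function, and the identifiers alone name them.

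Needles came from adult trees of natural stands in southern Spain. Control trees stood in dense, unmanaged stands, with strong competition for light and water. Thinning trees grew in plots that were cut to fewer trees in 2004. Shaded trees (thinning plus shading) grew in a thinned plot under a mesh that brought light near that of the control stands, so they shared low light with the controls and low competition for water with the thinned trees. Each treatment was sampled in August 2016 and in May 2017 with 2 libraries, which makes 12 libraries in 6 groups. No label says that the 2 libraries of a group came from separate trees, so their spread may be technical and p-values measure only that spread. The extraction text names pine seedling roots, but organism and tissue are given as fir and needles. With no gene names, needle identity could not be checked against marker genes. No light or water measurement was used here, so the name of canopy light rests on the treatments alone.

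Depth is unknown, because TPM does not retain it, and no counting interval can be given. Libraries listed between 81710 and 208032 transcripts above 0, the highest in thinning May replicate 1 and the lowest in thinning May replicate 2. These 2 libraries, which share a label, correlated at r = 0.407 across the 19726 transcripts at 10 or more in at least 2 libraries, on log2(scaled TPM + 1). The 2 control May libraries correlated at 0.729 and the 2 shaded ones at 0.83. Some May pairs across treatments correlated more highly. Control replicate 1 did so at 0.86 with thinning replicate 2 and 0.861 with shaded replicate 2. Control replicate 2 did so at 0.849 with thinning replicate 1 and 0.866 with shaded replicate 1. Thinning and shaded replicate 1 correlated at 0.887. Not all pairs across treatments were this close. Thinning replicate 1 correlated at 0.745 with shaded replicate 2, and thinning replicate 2 at 0.714 with shaded replicate 2 and 0.47 with shaded replicate 1. Control May libraries were thus also less alike than some libraries of different treatments. Transcripts are not independent replicates, and each May result for thinned trees is therefore given for both libraries.

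The separation in August was not a frequent pattern. Of 15777 transcripts that passed the August minimum, 0.317% met the rule as higher and 0.501% as lower. Before the control and shaded means were required to lie close, 84 transcripts were higher and 236 lower in thinned trees by the same fold. That requirement left 53 and 84. The limit on the mean took away 1 lower transcript, and the overlap of the months took away 3 higher and 4 lower ones. A further transcript, at 0 in both thinning libraries and in 1 control library, was not counted as lower. In bulk needles, fewer cells of a type and less RNA per cell cannot be told apart.

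The same rule was applied with each of the other treatments in the place of thinning. With shaded trees apart it found 35 higher and 115 lower transcripts, 150 in all. With control trees apart it found 357 higher and 263 lower, 620 in all. The number that set sunlit, thinned trees apart was thus of the size found for shaded trees and smaller than that for control trees. These 3 counts come from the same 6 libraries and were not tested against each other. The 2 directions depended on the scaling. Of the members, 38.8% were higher as deposited, against 52.2% after quantile normalization (71 higher and 65 lower) and 44.7% without the library factor (67 and 83).

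**Figure D1:**
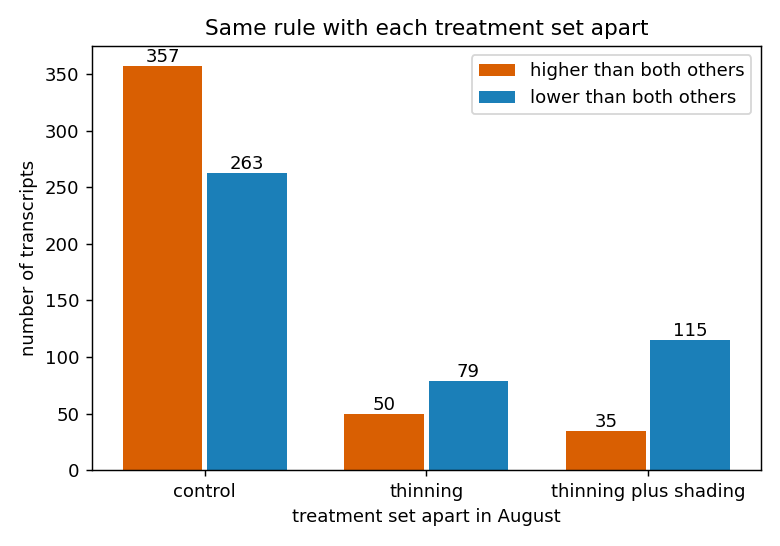
Number of transcripts (vertical axis) that meet the August rule with control, thinning or thinning plus shading as the treatment set apart (horizontal axis), higher in orange and lower in blue. Thinning gave 50 and 79, thinning plus shading 35 and 115, and control 357 and 263.

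Most members were of low to moderate abundance and lay close to the limit. The median over the 50 higher members was 19.8 scaled TPM for the thinning mean, against 8.62 for control and 8.10 for shaded trees. Many higher members reached the August minimum of 10 only through the 2 thinning libraries. With either of these left out, 24 of the 50 still met the rule. All 79 lower members did, but for them the 4 other libraries carry the minimum, so that outcome was almost fixed. The low levels of higher members elsewhere thus partly follow from the choice, which also limits their comparison with all transcripts. Over the 79 lower members the median was 7.36 for thinning, 18.9 for control and 20.6 for shaded trees. The mean of thinned trees and the mean of the 4 other libraries differed by a median of 2.80-fold in both directions, from 1.74-fold to 13.03-fold among the higher and from 1.76-fold to 40.3-fold among the lower members. The nearest values of the groups differed by 2-fold or more in 12 higher and 29 lower members, and by 3-fold or more in 2 and 4. The higher libraries averaged 100 or more in 10 higher and 9 lower members, and under 20 in 25 and 39. The control mean exceeded the shaded mean in 24 of the 50 higher and 46 of the 79 lower members.

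The most abundant of the higher members stood near 100 in low light and near 300 in the sun. TRINITY_DN145_c0_g1 was at 337 and 269.9 scaled TPM in the thinning August libraries, at 115 and 55.5 in control and at 60.2 and 146 in shaded trees. The group means were 303 ± 47 in thinning, 85.3 ± 42.1 in control and 103 ± 61 in shaded trees (mean ± SD, n = 2). The nearest values, thinning replicate 2 and shaded replicate 2, differed by 1.85-fold, while the 2 shaded libraries differed from each other by more than that. TRINITY_DN898_c0_g1 was at 308 and 228 in thinning, 111 and 79.2 in control and 129.7 and 95.4 in shaded trees, means of 268 ± 56, 95.03 ± 22.39 and 113 ± 24 (n = 2). TRINITY_DN4055_c0_g1 had nearly the same values, at 284 and 221 in thinning and between 81.6 and 131 in the 4 others. Both therefore lay above every low-light library with a narrow gap.

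Members with the widest relative gap among the higher ones were less abundant. TRINITY_DN19165_c1_g1 was at 18.3 and 21.7 scaled TPM in thinning, at 6.87 and 0 in control and at 1.08 and 4.45 in shaded trees. TRINITY_DN3776_c1_g1 was at 24.9 and 23.9 in thinning, with the 4 others between 3.44 and 9.24. Both were more than 2.5-fold above the nearest low-light value. TRINITY_DN12830_c1_g1 was at 173 and 114 in thinning, 51.5 and 22.8 in control and 39.8 and 48.7 in shaded trees, means of 144 ± 42, 37.1 ± 20.3 and 44.2 ± 6.3 (n = 2). TRINITY_DN1979_c1_g1 was at 73.5 and 68.8 in thinning, 31.7 and 26.1 in control and 12.3 and 32.3 in shaded trees. Its replicates in thinned trees differed by little, with a mean of 71.1 ± 3.3 against 28.9 ± 3.9 in control and 22.3 ± 14.2 in shaded trees (n = 2). TRINITY_DN1000_c0_g1 was at 34.6 and 22.7 in thinning and between 6.91 and 9.91 in the 4 others. The remaining higher members chosen for the widest gaps, TRINITY_DN1979_c1_g2, TRINITY_DN1000_c0_g2, TRINITY_DN13242_c0_g1 and TRINITY_DN318_c1_g1, had nearest values between 1.86-fold and 2.21-fold apart. The single largest ratio, 4.42-fold, belonged to TRINITY_DN9691_c1_g2 at 24.3 and 14.1 in thinning and between 0 and 3.19 in the others, which was named after its values were seen because it stays under the mean of 20 required of named members.

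Within the higher members the August replicates of thinned and control trees were mostly ordered alike, and those of shaded trees were not. Thinning replicate 1 exceeded replicate 2 in 40 of 50 (80.0%), against 51.1% of all 19726 transcripts, and control replicate 1 exceeded control replicate 2 in 39 (78.0%), against 48.1%. Shaded replicate 1 exceeded replicate 2 in 26 of 50, against 55.6%. In the lower members it did so in 33 of 79 for thinning (41.8%), 43 for control (54.4%) and 40 for shaded trees. Replicate numbers carry no order of their own. The higher members thus also differed in a common direction between the libraries of thinned and of control trees, and the part of that variation in their August separation was not tested.

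Among the lower members, 1 pair of transcripts was nearly absent from sunlit, thinned trees in August. TRINITY_DN1435_c0_g1 was at 0.801 and 0.248 scaled TPM in the thinning August libraries, at 20.8 and 14.8 in control and at 19.0 and 29.9 in shaded trees. Its means were 0.525 ± 0.391, 17.8 ± 4.3 and 24.5 ± 7.7 (n = 2), and the nearest values differed by 18.5-fold. TRINITY_DN1435_c0_g2, of the same assembly component, was at 1.44 and 0.214 in thinning and between 17.6 and 37.0 in the others. In May it and its partner were again near absent in thinning replicate 1, at 0.731 and 0.342, but stood at 31.3 and 24.5 in thinning replicate 2. The 4 other May libraries ranged from 18.2 to 26.6 for TRINITY_DN1435_c0_g1 and from 20.8 to 29.996 for TRINITY_DN1435_c0_g2. The 2 August thinning libraries were low by the choice. In May, which did not set the contrast, 1 thinning library was thus near 0 and the other was not.

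The abundant lower members lay about 2-fold apart at the nearest August values. TRINITY_DN5141_c0_g2, the most abundant member, was at 275 and 271 in thinning, 536 and 646 in control and 628 and 542 in shaded trees, means of 273 ± 3, 591 ± 78 and 585 ± 61 (n = 2). TRINITY_DN3712_c0_g1 was at 158 and 127 in thinning, 447 and 329.6 in control and 400.4 and 378 in shaded trees, means of 142 ± 22, 388 ± 83 and 389 ± 16 (n = 2). TRINITY_DN2216_c0_g1 followed it, at 153 and 126 in thinning and between 311 and 416 in the others. In these 3 the groups were separated by more than the range within any group. TRINITY_DN956_c0_g1 was at 41.02 and 43.8 in thinning, 174 and 109.9 in control and 109 and 104 in shaded trees. TRINITY_DN2255_c0_g1 was at 12.3 and 35.1 in thinning, 82.1 and 96.1 in control and 150.0 and 83.1 in shaded trees, with a nearest ratio of 2.34. TRINITY_DN327_c0_g1 was at 45.1 and 39.7 in thinning and between 95.1 and 125 in the others, and TRINITY_DN327_c0_g4, of the same component, at 33.7 and 29.0 and between 71.8 and 97.6. TRINITY_DN4256_c0_g1 and TRINITY_DN13193_c0_g1 had values of 8.20 and 6.37, and of 6.53 and 3.81, in thinning, against 20.4 or more and 17.5 or more in the 4 others.

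**Figure D2:**
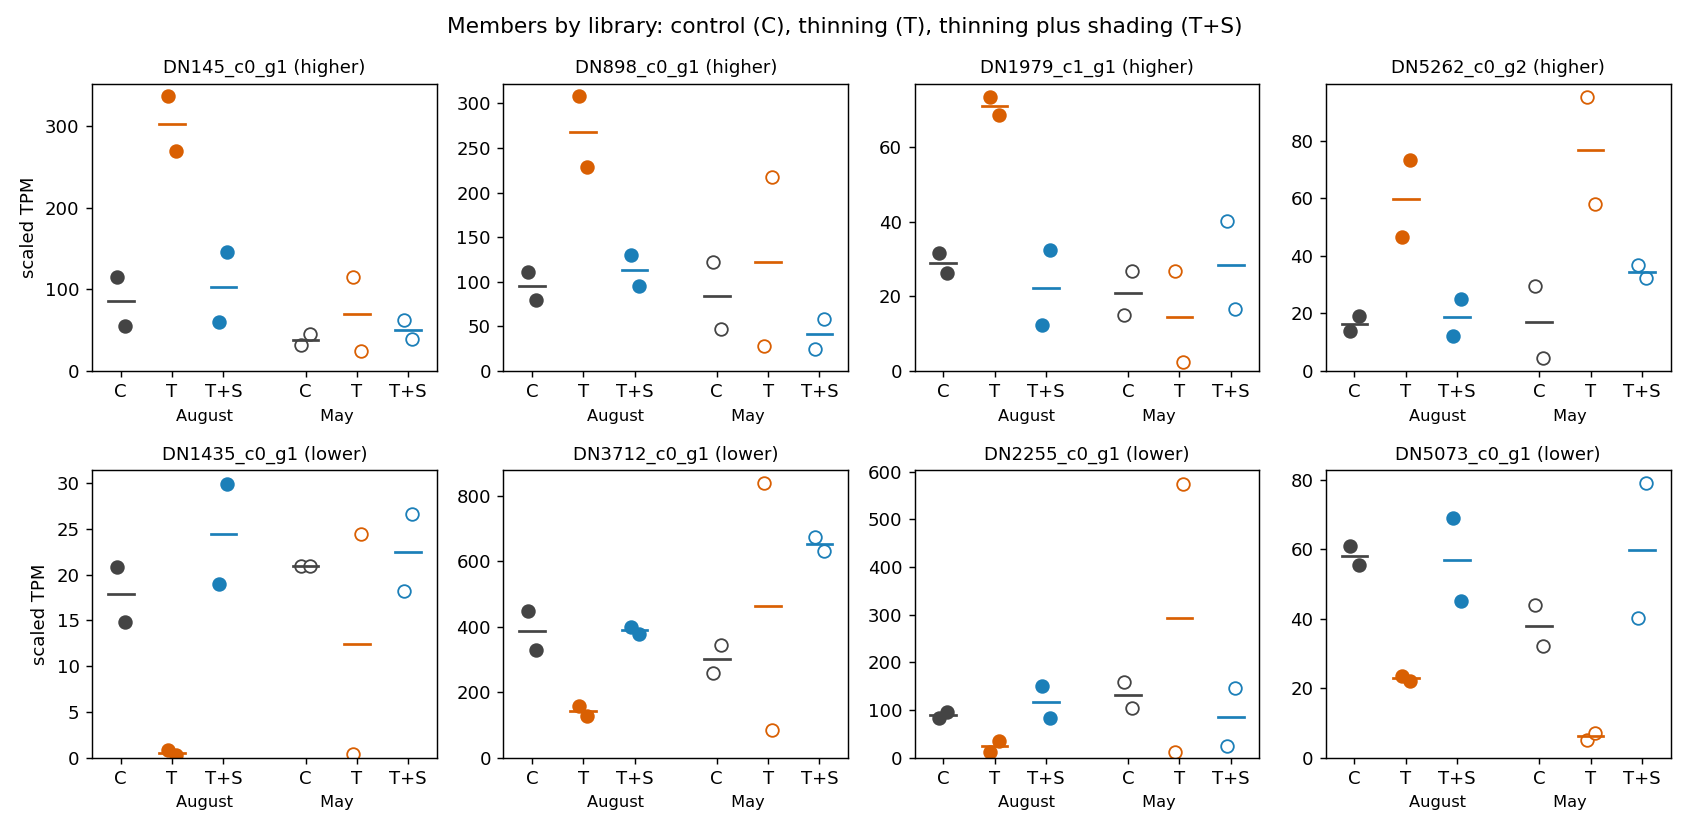
Scaled TPM (vertical axes, from 0) of 8 members in each library of control (C), thinning (T) and thinning plus shading (T+S), with filled circles for August, open circles for May and short lines for the mean of 2 libraries. In August both thinning circles lie apart from the 4 others in every panel, as the rule requires, whereas in May the 2 thinning circles lie far apart for most, such as 0.342 and 24.5 in DN1435_c0_g1, and on 1 side of the others for DN5262_c0_g2 and DN5073_c0_g1.

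At the limit itself the choice was fine. The higher members just inside were TRINITY_DN13831_c0_g2 with a nearest ratio of 1.52 and TRINITY_DN898_c0_g2 with 1.56, and the transcripts just outside were TRINITY_DN32389_c0_g1 with 1.4997 and TRINITY_DN18799_c0_g1 with 1.48. Among the lower ones TRINITY_DN6817_c1_g1 (1.503) and TRINITY_DN5113_c0_g2 (1.507) lay just inside, and TRINITY_DN120_c0_g1 (1.489) and TRINITY_DN15206_c0_g3 (1.486) just outside. These were taken among transcripts averaging 20 or more in the higher libraries.

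Several members behaved as 1 unit across libraries. The 50 higher members fell in 44 assembly components and the 79 lower ones in 71, with 12 higher and 16 lower members in a component that held more than 1. Where transcripts are linked whenever their 12-library profiles correlate at r = 0.95 or more, 23 higher members formed 9 groups and 31 lower members formed 13. Of these groups, 4 and 8 joined different assembly clusters. The median r over all pairs was 0.470 for the higher and 0.379 for the lower members. All these correlations are across 12 libraries of log2(scaled TPM + 1) that hold the August contrast used for the choice, and near-identical transcripts can share reads, so they are descriptions.

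The largest group joined 6 higher members of 5 clusters. It held TRINITY_DN145_c0_g1, TRINITY_DN318_c0_g3, TRINITY_DN318_c1_g1, TRINITY_DN12830_c1_g1, TRINITY_DN13242_c0_g1 and TRINITY_DN3359_c0_g1, with pairwise r between 0.916 and 0.995. In the 6 May libraries, which did not enter the contrast, their median pairwise r was 0.952 and the lowest 0.700. Thinning May replicate 1 was the highest May library for all 6, at 115.5 for TRINITY_DN145_c0_g1 and 33.6 for TRINITY_DN12830_c1_g1, and thinning May replicate 2 the lowest, at 24.4 and 4.54. TRINITY_DN898_c0_g1, TRINITY_DN898_c0_g2 and TRINITY_DN4055_c0_g1 formed a group with the reverse May order. TRINITY_DN898_c0_g1 stood at 217 in thinning May replicate 2 and at 27.4 in replicate 1, with control at 122 and 46.4 and shaded trees at 24.2 and 58.6. Thus 2 groups of abundant transcripts that were alike in August went opposite ways between the May libraries of thinned trees.

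Among the lower members, TRINITY_DN3712_c0_g1 and TRINITY_DN2216_c0_g1 correlated at 0.999 although they belong to different clusters. TRINITY_DN520_c0_g1, TRINITY_DN2052_c0_g1 and TRINITY_DN6852_c0_g1, of 3 clusters, had r between 0.965 and 0.991, with thinning August values between 23.4 and 35.7 and all 12 values of the other August libraries between 49.8 and 96.4. In May these 3 stood between 8.55 and 9.32 in thinning replicate 2 and between 74.3 and 124 in replicate 1. TRINITY_DN5141_c0_g2 grouped with TRINITY_DN2143_c0_g1 and TRINITY_DN2143_c0_g2, which were at 7.996 to 8.53 in thinning and 13.4 to 20.9 in the other August libraries. In May TRINITY_DN5141_c0_g2 ran from 324 in thinning replicate 1 to 3159 in thinning replicate 2, and TRINITY_DN2143_c0_g1 from 9.89 to 212, in the same libraries.

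Other transcripts of the members' components pointed the same way more often than not. Of 18 further tested transcripts in components of the higher members, 15 lay above all 4 low-light libraries in both thinning August libraries, against 7.16% of all 19726. Of 39 in components of the lower members, 21 lay below all 4, against 9.45%. Transcripts of 1 component share reads and are no independent sample.

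**Figure D3:**
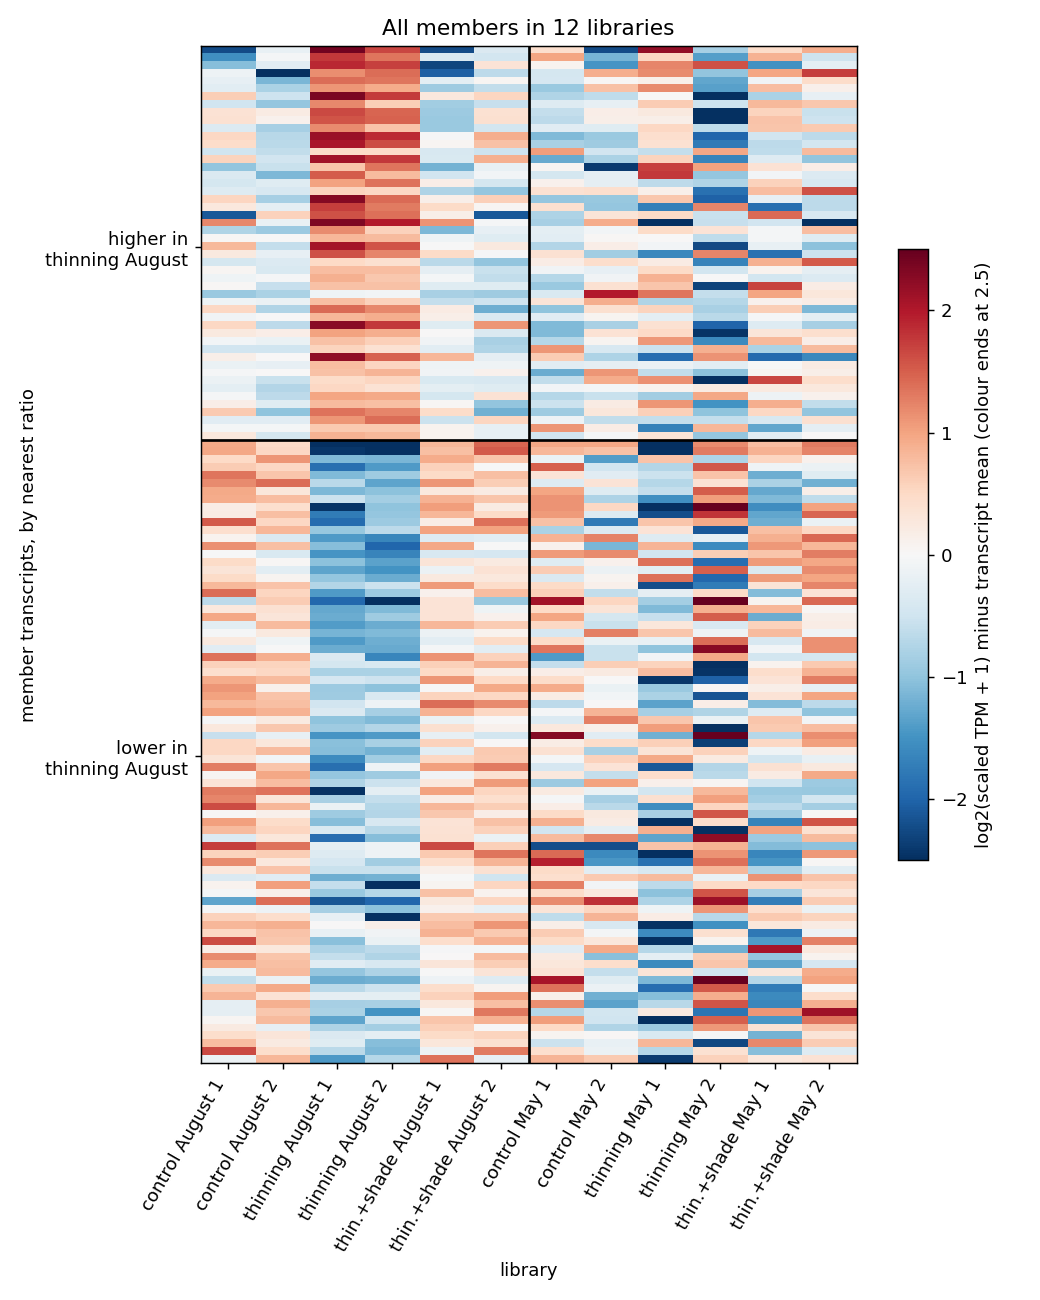
Colour map of log2(scaled TPM + 1) minus the mean of each transcript for all 129 members (rows, 50 higher above the line and 79 lower beneath it, ordered by nearest ratio) in 12 libraries (columns, August left and May right of the line); colours end at 2.5. The 2 thinning August columns stand apart by choice, and in May the 2 thinning columns often take opposite colours.

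In May, no difference of thinned trees was called in these transcripts or in any other. The difference between thinned trees and the mean of control and shaded trees was tested with limma in the 6 May libraries over all 19726 transcripts, and 0 of the 129 members were called at an adjusted p under 0.05 (smallest adjusted p 0.956). No transcript of the whole table was called either (0%), so the count of 0 says nothing particular to the members. At an unadjusted limma p under 0.05 there were 2 of 50 higher members (4.00%) and 8 of 79 lower members (10.1%), against 4.93% of all transcripts. Of these, 1 of the 2 and 6 of the 8 were lower in thinned trees, as were 730 of the 973 among all transcripts. The median May difference was -0.18 log2 units over the higher and -0.13 over the lower members, against -0.04 over all. By sign of the log2 difference, 20 of 50 higher members were positive and 47 of 79 lower members were negative. Signs on the log2 scale were not counted over all transcripts, here or in the comparisons and fits below. With means of scaled TPM, not of logarithms, the counts differ. On that scale the thinning mean lay above the mean of the 4 others in 23 of 50 higher members (46.0%). It did so in 41 of 79 lower members (51.9%), against 49.6% of all transcripts. A p over the threshold with 2 libraries a group does not show that values were equal.

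The separate May comparisons gave 0 called members each by limma. Against control alone, 11 members had an unadjusted p under 0.05 (8.53%, against 4.65% of all transcripts, of which 0% were called). Against shaded trees alone there were 14 (10.9%, against 3.66%, with 0% called), 11 of them lower in thinned trees. Of these 11, 8 were lower members and 3 were higher members, which went against their August direction. Among all transcripts, 468 of the 721 were lower in thinned trees. Between shaded and control trees in May there was 1 (0.775%, against 2.54%, with 0% called). Shaded trees stood above control in 37 of 50 higher members and in 34 of 79 lower ones. The median difference was 0.30 log2 units over the higher and -0.15 over the lower members, against -0.10 over all transcripts. Over the lower members it turned to 0.22 without control May replicate 1 and to 0.28 without shaded May replicate 1. It was -0.33 without control replicate 2 and -0.47 without shaded replicate 2. Control and shaded means, which the rule held within 1.5-fold in August, lay within that range in May in 32 of 50 higher (64.0%) and 38 of 79 lower members (48.1%), against 69.6% of all transcripts.

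The May result was a mean over 2 unlike thinning libraries. Without thinning May replicate 2, so with replicate 1 alone, the median May difference was 0.38 log2 units over the higher members and -0.50 over the lower ones. These are the August directions, and the median over all transcripts was -0.12. Without replicate 1 the median was -0.77 over the higher and 0.65 over the lower members, the opposite directions, against -0.06 over all transcripts. Positive differences numbered 33 of 50 and 13 of 50 among the higher members in these fits, and negative ones 53 of 79 and 31 of 79 among the lower. With 1 thinning library, its spread is taken to be that of the other groups. No member was called in either fit by limma (smallest adjusted p 0.758 and 0.195). Unadjusted p under 0.05 then occurred in 24 members without replicate 2 (18.6%, against 6.45% of all transcripts) and in 42 without replicate 1 (32.6%, against 20.5%).

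The members' May levels show the same split. Thinning replicate 1 exceeded replicate 2 in 38 of 50 higher members (76.0%) and in 23 of 79 lower members (29.1%), against 49.1% of all transcripts. Replicate 1 alone lay at least 1.5 times above all 4 other libraries in 10 higher members (20.0%, against 4.93%) and that far below them in 22 lower members (27.8%, against 4.81%). Replicate 2 alone lay that far below them in 20 higher members (40.0%, against 17.2%), while among the lower members it lay above them in 12 (15.2%, against 10.7%) and below them, the August direction, in 18 (22.8%, against 17.2%). Thinning May replicate 1 held the highest of the 6 May values in 17 of 50 higher members (34.0%, against 14.8% of all transcripts) and the lowest in 32 of 79 lower members, against 20.8%. Thinning May replicate 2 held the lowest value in 30 of 50 higher members, against 33.7%, and the highest in 36 of 79 lower members, against 31.1%. The median level of the higher members was 16.5 in thinning May replicate 1, 5.59 in thinning replicate 2, 8.86 and 11.4 in control and 12.8 and 12.2 in shaded trees. That of the lower members was 9.04 and 18.1 in thinning, 22.2 and 18.8 in control, and 11.2 and 22.1 in shaded trees. Shaded replicate 1, the library that correlated best with thinning replicate 1 (r = 0.887 over 19726 transcripts), thus lay near it in the lower members although its trees stood under the mesh. The median absolute difference between the 2 thinning May libraries was 1.91 log2 units in the higher and 1.98 in the lower members, against 0.74 over all transcripts. Members also varied more than all transcripts in May control (0.76 and 0.74, against 0.42) and May shaded trees (0.65 and 0.66, against 0.30). The same held in August for control (0.47 and 0.42, against 0.26) and shaded trees (0.48 and 0.36, against 0.28). Only in August thinning, where the choice acts, did they vary less (0.19 and 0.21, against 0.28).

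**Figure D4:**
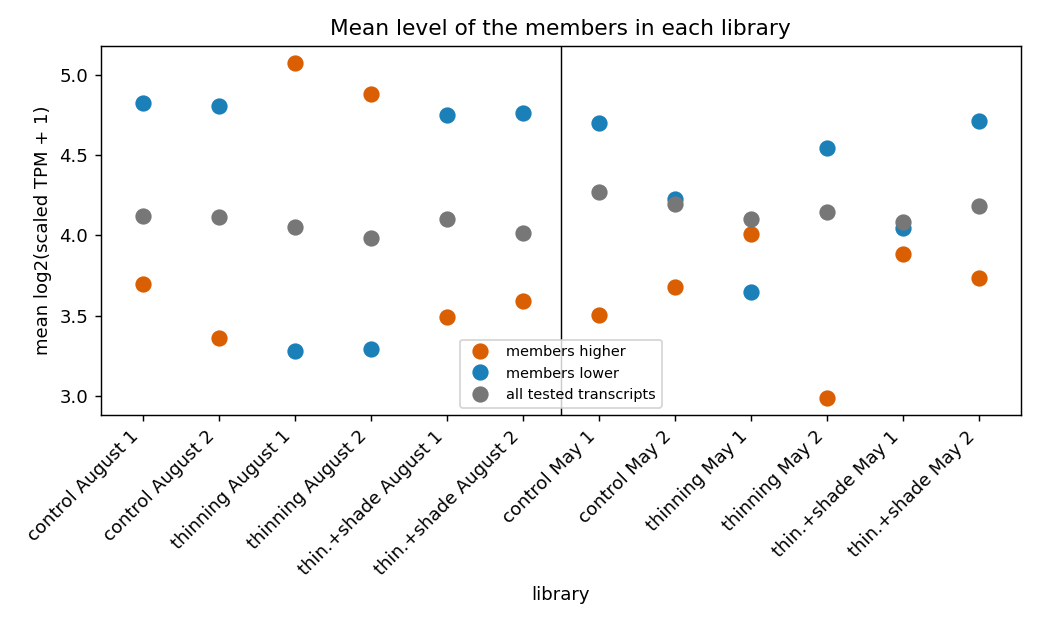
Mean log2(scaled TPM + 1) over the 50 higher members (orange), the 79 lower members (blue) and all 19726 tested transcripts (grey) in each of the 12 libraries (horizontal axis); each point is 1 library. The order of orange and blue is turned round in both thinning August libraries, by choice, and for these means in May only in thinning replicate 1, at 4.01 and 3.65. By median scaled TPM it was also turned round in shaded May replicate 1, at 12.8 for higher and 11.2 for lower members.

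A few members kept their August position in both thinning May libraries. By the same 1.5-fold rule, 2 of 50 higher members (4.00%) lay above all 4 other May libraries, against 0.679% of all transcripts, and 5 of 79 lower members (6.33%) lay below them, against 0.776%. With no fold required, 3 higher members lay above all 4 (6.0%, against 3.55%) and 8 lower members below (10.1%, against 9.81%). TRINITY_DN5262_c0_g2 was the more abundant of the higher ones. It stood at 46.7 and 73.1 scaled TPM in thinning in August, with the others between 12.1 and 25.1, and at 95.3 and 58.1 in thinning in May, with the others between 4.61 and 36.7. Its May log2 difference was 1.81 with an SE of 0.74 (limma, unadjusted p = 0.062, adjusted 0.956). TRINITY_DN8017_c0_g1 was at 16.97 and 15.1 in August and 10.5 and 13.8 in May in thinned trees, and between 0 and 5.23 in the 8 other libraries (May log2 difference 2.20, SE 0.66). Its thinning mean stayed under 20, so it is named after its values were seen.

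The lower members that kept their position were 4 components. TRINITY_DN5073_c0_g1 was at 23.6 and 21.998 in thinning in August, with control at 61.1 and 55.4 and shaded trees at 69.03 and 45.1. In May it was at 5.05 and 7.11 in thinning, 43.9 and 32.1 in control and 40.3 and 79.1 in shaded trees. Its May log2 difference was -2.75 with an SE of 0.36 (limma, unadjusted p = 0.000848, adjusted 0.956). TRINITY_DN5073_c0_g2, of the same component, had a May log2 difference of -2.52 (SE 0.35), from 5.21 and 7.62 against 30.3 to 66.5. TRINITY_DN4485_c0_g5 was at 2.63 and 5.998 in thinning and between 14.1 and 23.4 in the others in May (log2 difference -2.05, SE 0.37). TRINITY_DN327_c0_g4 was at 72.9 and 79.7 against 169.7 to 249 (log2 difference -1.38, SE 0.24). TRINITY_DN36585_c0_g2, named after its values were seen, was at 21.4 and 7.69 against 35.9 to 76.1. These 5 transcripts lay below the 4 low-light libraries in August by the rule, and in May because they were picked for that. Their position in both months is therefore no separate result, and none passed the adjusted threshold.

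**Figure D5:**
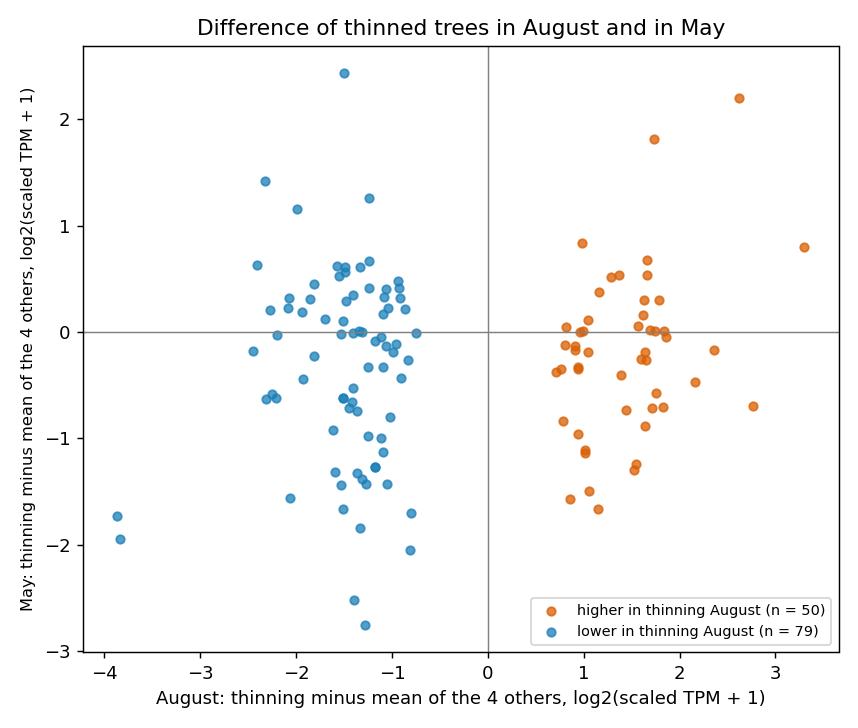
Difference between thinned trees and the mean of the 4 control and shaded libraries in August (horizontal axis, which the rule used) and in May (vertical axis), both in log2(scaled TPM + 1), with 1 point per member. Orange points (50) are higher and blue points (79) lower in August; both spread to either side of 0 in May, where 20 orange points are positive and 47 blue points negative.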

How the data were processed

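Needle RNA of 12 libraries was taken up as deposited. The values are a signal that the authors scaled: after rescaling to TPM sums, 99.35% or more of the nonzero values in each library fall on whole steps of 0.01 (tolerance 0.1 step), so they are TPM times a library factor. Columns sum to 856638 to 1179097. Trimmomatic, RSEM and DESeq2 are named, per the submitters' processing notes, without versions; the assembly and alignment settings are not stated in the labels. Columns were matched by sample description.

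Members follow the rule in the text, with a library at 0 never counted as above another at 0. May contrasts used limma 3.58.1 (R 4.3.3) with an intensity trend on log2(scaled TPM + 1), 3 group means, 6 May libraries and 19726 transcripts at 10 or more in at least 2 of 12 libraries; two-sided p-values were Benjamini-Hochberg adjusted over all of them. The fit was tested on simulated data with the same spread in every group, which the May libraries do not have. That check does not show what size of change could be found here. The August libraries stayed out because the choice makes their spread small. Descriptions used Python 3.11.15. Count tests were not run, since no reads could be recovered.

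Named members, in each direction, are the 10 with the widest gap between nearest values with 1 added (mean of at least 20 in the higher libraries), the 3 most abundant, 2 either side of the limit, and up to 3 apart in May each way; exceptions are marked. Members, lists and alternatives were chosen with earlier results of these data known. The alternatives were other folds, filters, pseudocounts, scalings, a 12-library fit, a replicate block and each library left out. Fixed lists of light-response and needle genes could not be applied without gene names.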

Additional observations from a re-analysis of the deposited data

Results flagged for a closer look

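In 2 members thinned trees took opposite sides in the 2 months, and the difference between the months was not tested. Both were named after their values were seen. TRINITY_DN272311_c0_g1 was at 18.2 and 16.0 scaled TPM in thinned trees in August, with the 4 other libraries between 6.52 and 9.60, and at 5.83 and 5.97 in May, with the others between 11.3 and 20.5. Its nearest May values differed by 1.77-fold after 1 was added to each. TRINITY_DN14324_c0_g4 was at 2.94 and 3.28 in thinned trees in August, against 5.98 to 14.3, and at 6.58 and 7.48 in May, against 1.26 or less, with both control May libraries listed at 0. Its nearest May values differed by 3.35-fold after 1 was added. Their May log2 differences were -1.11 (SE 0.27) and 2.43 (SE 0.45), with adjusted p = 0.956 for each by limma. Opposite positions were taken by 1 of 50 higher members (2.00%, against 0.776% of all transcripts) and 1 of 79 lower members (1.27%, against 0.679%). Groups of 2 libraries are too small for a test of single outlying libraries.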

How the results depend on the processing

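With 2 libraries a group and unknown depth, small differences cannot be seen. No member was called in any of the 4 May contrasts under any of 14 alternatives (smallest limma adjusted p 0.0888, in the fit of all 12 libraries). The replicate block also gave 0 called members. For thinning against the mean of the others, 12 members (9.3%) had an unadjusted limma p under 0.05 with it, against 2.93% of all transcripts. Without it there were 10 (7.75%, against 4.93%). Deviations of same-numbered May libraries correlated at 0.629 between thinning and shaded trees. They correlated at -0.707 between control and thinning and at -0.539 between control and shaded trees. May libraries thus shared variation across treatments, but in control the numbers ran the other way. A block by number assumes the same shift in every treatment, which these signs do not share. In August the correlations lay between -0.18 and 0.216.

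The number of members followed the rule. Higher and lower members numbered 147 and 190 with a fold of 125% in place of 1.5, 12 and 29 with a fold of 2, 31 and 45 with control and shaded means within 125% of each other, 81 and 231 with no such limit, 12 and 20 with a filter of 50, and 817 and 403 with a filter of 1. Leaving out 1 August library gave 64 to 159 higher and 93 to 402 lower transcripts, partly because fewer values have to be apart. The counts were 102 and 136 without control replicate 1, 95 and 402 without thinning replicate 1, 159 and 218 without thinning replicate 2, and 143 and 140 without shaded replicate 2. Of the members themselves, 27 to 43 higher and 57 to 64 lower ones still met the rule without 1 control or shaded August library. After quantile normalization 47 of the 50 higher and 62 of the 79 lower members met the rule, and without the library factor 47 and 66.

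May log2 differences of named members turned sign in 25 of 31 transcripts without 1 of the thinning May libraries, and none was called. TRINITY_DN2255_c0_g1, at -0.031, was at 0.14 with a pseudocount of 8 and at 0.00059 without the library factor. With each May library left out in turn, the ranges among the higher members were -0.77 to 0.39 for TRINITY_DN1000_c0_g1, -0.83 to 0.32 for TRINITY_DN1000_c0_g2, -2.03 to 0.61 for TRINITY_DN12830_c1_g1, -1.20 to 1.22 for TRINITY_DN13242_c0_g1 and -1.49 to 1.11 for TRINITY_DN13831_c0_g2. They were -0.80 to 1.40 for TRINITY_DN145_c0_g1, -1.78 to 0.39 for TRINITY_DN19165_c1_g1, -2.80 to 0.22 for TRINITY_DN1979_c1_g1, -2.84 to 0.35 for TRINITY_DN1979_c1_g2, -1.06 to 1.09 for TRINITY_DN318_c1_g1 and -1.28 to 0.14 for TRINITY_DN3776_c1_g1. They were -0.90 to 1.94 for TRINITY_DN4055_c0_g1, -0.94 to 2.00 for TRINITY_DN898_c0_g1 and -0.98 to 2.05 for TRINITY_DN898_c0_g2. Among the lower members they were -0.22 to 0.86 for TRINITY_DN13193_c0_g1, -4.07 to 0.18 for TRINITY_DN1435_c0_g1, -3.84 to 0.38 for TRINITY_DN1435_c0_g2, -2.41 to 0.93 for TRINITY_DN2216_c0_g1, -2.77 to 2.71 for TRINITY_DN2255_c0_g1 and -2.36 to 0.93 for TRINITY_DN3712_c0_g1. They were -1.18 to 1.39 for TRINITY_DN4256_c0_g1, -0.43 to 0.66 for TRINITY_DN5113_c0_g2, -1.47 to 1.81 for TRINITY_DN5141_c0_g2, -1.12 to 0.88 for TRINITY_DN6817_c1_g1 and -0.49 to 1.62 for TRINITY_DN956_c0_g1. The cause was not tested.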
